A study of Bos taurus with 12 samples.

Results

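This account follows 10 genes of prostaglandin synthesis, reception and breakdown in cattle (Bos taurus) precursor adipocytes. The genes were chosen by symbol, with no measured value in the rule: the cyclooxygenases PTGS1 and PTGS2, the prostaglandin E synthases PTGES, PTGES2 and PTGES3, the prostacyclin synthase PTGIS, the receptors PTGER2, PTGER4 and PTGFR, and the degrading enzyme HPGD. All 10 were found among the 29240 genes of the count table, and 8 of them were among the 16300 genes that passed the filter on low counts. PTGS1 and PTGER2 did not pass it. Transfected cells were harvested at 48 h, and each of the 4 groups had 3 libraries. The si group received an interference reagent whose target the labels do not name, and si_NC was its negative control. The OE group received the pcDNA3.1-HGFAC plasmid, which carries the coding sequence of HGFAC, a secreted protease that activates hepatocyte growth factor, and OE_NC received pcDNA3.1-NC. All 4 groups were therefore transfected, and no untransfected cells were analysed here. The labels do not say whether the 3 libraries of a group came from separate cultures, so the p-values measure only the spread between these libraries, which may be technical.

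Prostaglandins are short-lived lipid signals made from arachidonic acid that phospholipases release from membranes. A cyclooxygenase converts arachidonate to prostaglandin H2, terminal synthases turn that shared precursor into prostaglandin E2, prostacyclin and other forms, receptors on the cell surface pass the signal on, and HPGD starts the inactivation of the product. In mouse and rat preadipocytes, prostacyclin is known to favour differentiation and prostaglandin F2-alpha to oppose it, and in fat tissue prostaglandin E2 is known to restrain lipolysis.

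Counts assigned to genes ranged from 28944733 to 42703663 per library, and replicates of a group correlated at 0.9918 to 0.9969 (Pearson, log2 scale, across genes). The libraries si replicate 3 and si_NC replicate 2 deviated together from their group means (r = 0.493 across genes), so results that change without both are given both ways. Normalised by the trimmed mean of M-values (TMM), HGFAC stood at 161 ± 26.3 CPM (counts scaled to a common library size) in OE and 0.393 ± 0.127 CPM in OE_NC (SD, n = 3 each), and at 0.658 ± 0.165 CPM in si and 0.83 ± 0.0988 CPM in si_NC. The log2 change of HGFAC was 8.67 ± 0.19 (SE, edgeR quasi-likelihood test, adjusted p = 4.31e-13 by the Benjamini-Hochberg method over 16300 genes) in OE and −0.35 ± 0.27 (adjusted p = 0.512) in si. Of the 15 preadipocyte and stromal markers, 13 were above 1 CPM (the highest, COL1A2, at 7200 CPM on average), while CD34 and DLK1, which mark fat cell precursors, were at 0.0287 and 0.0689 CPM. Markers of mature fat cells were low (the highest, PPARG, at 16.7 CPM, and 7 of 13 below 1 CPM). The highest markers of other cells averaged 3320 CPM for smooth muscle (ACTA2, with 2 of 8 below 1 CPM), 64.2 CPM for endothelium (FLT1), 4.4 CPM for immune cells (CD68, with 5 of 10 below 1 CPM) and 1.9 CPM for epithelium (KRT19, with 7 of 8 below 1 CPM). Of the 7 endothelial markers 5 were below 1 CPM, PECAM1 (0.365 CPM) and CDH5 (0.318 CPM) among them. These ranks are by CPM, which is not scaled to gene length, so the order per length may differ.

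Set side by side per length, as the deposited RPKM (read counts scaled to gene length and library size), the 10 genes spanned a wide range with the same 4 synthases at the top of every group. Over the 12 libraries, PTGES3 averaged 60.3 RPKM, higher than 93.1 percent of the tested genes. PTGES3 is a cytosolic prostaglandin E synthase and also the HSP90 co-chaperone p23. PTGES, the inducible microsomal enzyme, averaged 9.91 RPKM, PTGES2, a further membrane-associated E synthase, 5.04 RPKM, and PTGIS 2.42 RPKM. These 4 did not overlap one another in any group. HPGD averaged 0.899 RPKM, PTGER4 0.466, PTGS2 0.399 and PTGFR 0.341 RPKM, which placed them between the percentiles 17.3 and 29.9 of tested genes. PTGS1 averaged 0.0365 RPKM and PTGER2 0.0329 RPKM.

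**Figure D1:**
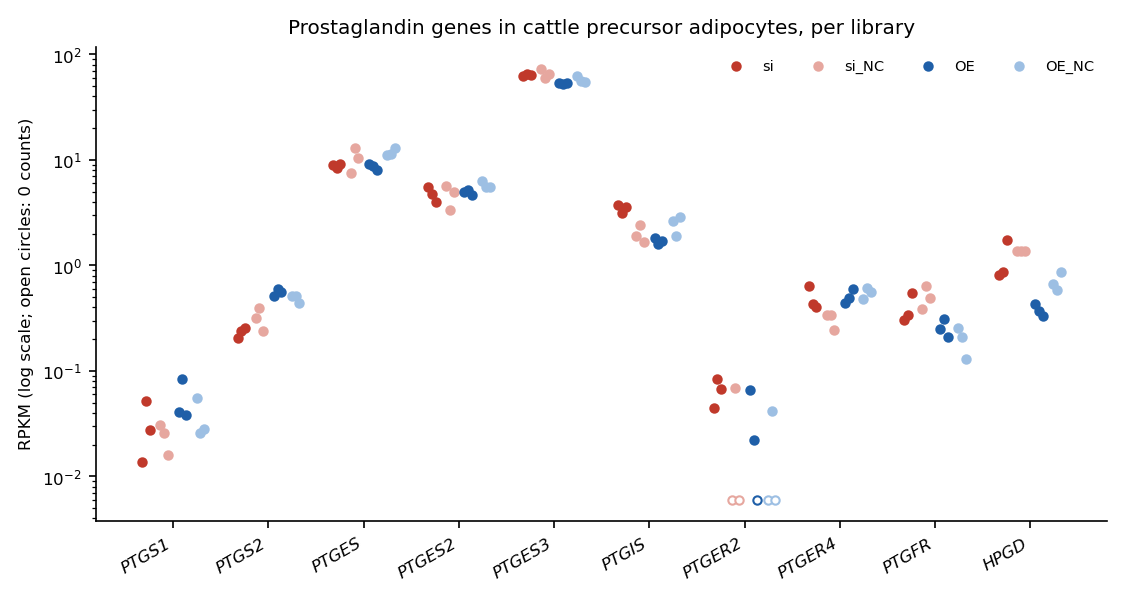
Level of each gene in each of the 12 libraries, in RPKM on a log scale, coloured by group, with open circles at the bottom for 0 counts. PTGES3, PTGES, PTGES2 and PTGIS keep their order in all 4 groups, while PTGS2 lies at 0.557 RPKM on average in OE, above HPGD at 0.376 RPKM, and at 0.234 RPKM in si, below HPGD at 1.14 RPKM.

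The lower part of the order differed between groups. HPGD came right after PTGIS in si, si_NC and OE_NC, and in OE_NC its range overlapped that of PTGER4, the next gene. In OE that place was held by PTGS2 (0.557 RPKM), whose range overlapped that of PTGER4 (0.514 RPKM), and HPGD came next at 0.376 RPKM. In si, PTGER4 (0.493 RPKM) and PTGFR (0.399 RPKM) overlapped and lay above PTGS2 (0.234 RPKM). In si_NC, PTGFR (0.509 RPKM), PTGS2 (0.318 RPKM) and PTGER4 (0.308 RPKM) each overlapped its neighbour. PTGS1 and PTGER2 were last in every group and overlapped each other.

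The cyclooxygenase signal came mostly from PTGS2, the inducible enzyme. Per length, PTGS2 made up 88.7 ± 5.89 percent of PTGS1 plus PTGS2 in si, 92.9 ± 1.5 percent in si_NC, 91.3 ± 3.18 percent in OE and 93.1 ± 2.57 percent in OE_NC (SD, n = 3 each). PTGS1, the constitutive enzyme, had between 2 and 12 counts in each library. PTGER2, a receptor of prostaglandin E2 that raises cyclic AMP, had 4, 9 and 6 counts in si, 0, 5 and 0 in si_NC, 6, 2 and 0 in OE, and 0, 4 and 0 in OE_NC. A count of 0 allows up to 3 counts if each count is a separate event. That is 0.0818 to 0.1 CPM in those 5 libraries and covers counting error only. Of the nonzero counts of PTGER2 71.4 percent were even, so counts may not be separate events and the bound may be too low. With the filter on low counts removed, neither gene passed the test in any comparison, and the log2 change of PTGER2 in si was 1.41 ± 1.19 (adjusted p = 0.663).

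In the comparison of si with si_NC, PTGIS rose and no other member passed the test. PTGIS encodes prostacyclin synthase, a cytochrome P450 enzyme that turns prostaglandin H2 into prostacyclin. It stood 1.66-fold higher in si (95% interval 1.30 to 2.11). The other 7 tested members had log2 changes from −0.51 to 0.60, and 6 of the 8 estimates were below 0. The question of this comparison is how the interference reagent changed expression, as far as the labels give it.

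PTGIS had 8.62, 7.22 and 8.28 CPM in the si libraries, against 4.68, 5.80 and 4.07 CPM in the si_NC libraries. Every si library lay above every si_NC library. The log2 change was 0.73 ± 0.16 (SE, 95% interval 0.38 to 1.08, edgeR quasi-likelihood test, adjusted p = 0.0329). Of the 16300 tested genes, 2.54 percent were called in either direction in this comparison, 0.92 percent upward and 1.62 percent downward, against 1 of the 8 tested members, upward. Of all tested genes, 150 rose and 264 fell, and with the trend on gene length removed 175 rose and 918 fell. DESeq2 and limma likewise called 1 member each. The PTGIS call depended on single libraries: the adjusted p was 0.125 without si replicate 1 (log2 0.67), 0.0726 without si replicate 2 (0.79), 0.139 without si_NC replicate 1 (0.70) and 0.117 without si_NC replicate 3 (0.61). Without si replicate 3 and si_NC replicate 2 together it was 0.84 (adjusted p = 0.0141). In a fit of the 6 libraries compared alone it was 0.73 with an adjusted p of 0.115. In bulk RNA, more cells of a type and more RNA per cell cannot be told apart.

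Marker genes of other lists also differed between si and si_NC. The 15 stromal markers found summed to 21400 to 27800 CPM in si and 15600 to 21800 CPM in si_NC, and 1 of the 13 tested, THY1, rose (log2 0.66 ± 0.14, adjusted p = 0.0263). The 8 epithelial markers summed to 3.61 to 4.57 CPM in si and 2.14 to 2.64 CPM in si_NC, with 7 of the 8 under 1 CPM and none of the 4 tested called. The 8 smooth muscle and pericyte markers summed to 4380 to 5120 CPM in si and 4560 to 5340 CPM in si_NC, and 1 of the 7 tested, CSPG4, rose (log2 0.50 ± 0.11, adjusted p = 0.03). No gene of these lists was at 0 in all libraries. Their part in the PTGIS result was not tested.

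PTGIS and PTGES draw on the same precursor. PTGIS made up 28.2 ± 1.06 percent of PTGIS plus PTGES per length in si and 16.6 ± 3.16 percent in si_NC, 16.5 ± 1.06 percent in OE and 17.3 ± 2.55 percent in OE_NC (SD, n = 3 each). The si libraries (27.2 to 29.3 percent) lay above all 9 others (13.9 to 20.1 percent). PTGES itself had 7.59, 7.03 and 7.76 CPM in si, against 6.80, 11.2 and 9.21 CPM in si_NC, with overlapping groups. Its log2 change was −0.28 ± 0.15 (adjusted p = 0.322).

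The other E synthases did not pass the test. PTGES2 had 7.94, 6.83 and 5.80 CPM in si, against 8.77, 5.06 and 7.61 CPM in si_NC, with si inside the range of si_NC (log2 −0.06 ± 0.17, 95% interval −0.43 to 0.30). PTGES3 had 120, 126 and 124 CPM in si, against 153, 121 and 134 CPM in si_NC, and its log2 change was −0.14 ± 0.08 (adjusted p = 0.396). The SD of PTGES3 was 2.88 CPM in si and 16 CPM in si_NC.

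PTGS2 had 0.707, 0.822 and 0.880 CPM in si, against 1.18, 1.41 and 0.868 CPM in si_NC. The groups overlapped through si_NC replicate 3. The log2 change was −0.51 ± 0.23 (95% interval −1.01 to −0.02, adjusted p = 0.247), on 26 to 36 counts in the si libraries and 26 to 40 in those of si_NC.

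Among the receptors, PTGER4 had 2.18, 1.46 and 1.38 CPM in si, against 1.24, 1.2 and 0.868 CPM in si_NC. PTGER4 encodes a prostaglandin E2 receptor that acts through cyclic AMP. Its groups did not overlap, as was so for 2 of the 8 members, both upward, and for 20.8 percent of tested genes (10.2 percent upward), and its log2 change of 0.60 ± 0.24 did not pass the test (adjusted p = 0.195). PTGFR, the prostaglandin F2-alpha receptor, which acts through phospholipase C and calcium, had 1.58, 1.74 and 2.86 CPM in si, against 2.16, 3.45 and 2.67 CPM in si_NC. These groups overlapped, with a log2 change of −0.42 ± 0.27 (adjusted p = 0.434).

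HPGD, the dehydrogenase that inactivates prostaglandins, depended on a single si library. It had 1.93, 2.06 and 4.18 CPM in si, against 3.53, 3.34 and 3.44 CPM in si_NC. Replicates 1 and 2 of si lay below all si_NC libraries and replicate 3 lay above them. The log2 change was −0.34 ± 0.26 (adjusted p = 0.503) with all libraries and −0.79 (adjusted p = 0.0414) without si replicate 3. Without si replicate 3 and si_NC replicate 2 together it was −0.81 (adjusted p = 0.0407).

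**Figure D2:**
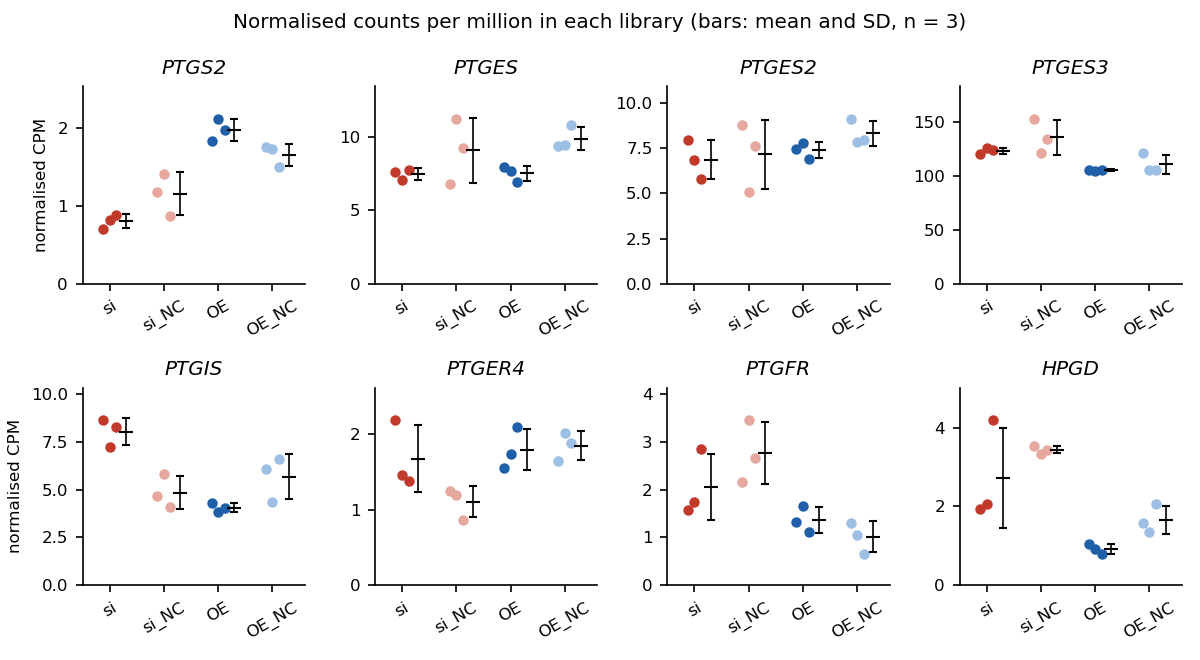
Normalised CPM of the 8 tested members in each library, with bars for the mean and SD of each group (n = 3) and axes from 0. PTGIS lies between 7.22 and 8.62 CPM in si and at most 6.61 CPM in the 9 other libraries, and HPGD shows si replicate 3 at 4.18 CPM, apart from the other 2 si libraries.

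In the comparison of OE with OE_NC, no member passed the test over all genes. Of the 8 tested members 6 had estimates below 0, and the furthest from 0 was HPGD, at −0.84 on the log2 scale. PTGIS, PTGES and HPGD had unadjusted p-values of 0.0119, 0.0173 and 0.0128 (edgeR), and 3736 of the 16300 tested genes had one under 0.05. Beside these values, 2 of 7 tested smooth muscle markers, MYH11 (log2 1.01) and DES (0.42), rose in OE, while the list summed to 5620 to 6020 CPM in OE and 5510 to 6180 CPM in OE_NC, and their part was not tested. This comparison addresses what HGFAC overexpression changed.

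In all, 4.47 percent of the 16300 tested genes were called in this comparison, 2.22 percent upward and 2.25 percent downward, against 0 of 8 members by edgeR. At an unadjusted p under 0.05 there were 3 members, beside 3736 of the 16300 tested genes. DESeq2 and limma also called 0 members. Groups did not overlap for 5 of the 8 members (1 upward and 4 downward), against 33.3 percent of all tested genes (17.4 percent upward and 16 percent downward). The count of members rested on the fit: in a fit of the 6 libraries compared it was 2, and without si replicate 3 and si_NC replicate 2 together, which belong to neither group, it was 3 (PTGIS, PTGES and HPGD, all downward). The calls over all tested genes also rose in each of those fits, so the 4.47 percent does not apply to them. Their totals are given with the dependence on processing.

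HPGD had 1.05, 0.911 and 0.801 CPM in OE, against 1.58, 1.36 and 2.05 CPM in OE_NC. All OE libraries lay below all OE_NC libraries, on 26 to 38 counts per OE library and 54 to 74 per OE_NC library. The log2 change was −0.84 ± 0.30 (95% interval −1.48 to −0.21, adjusted p = 0.109). The adjusted p was 0.0492 with only the 6 libraries compared, 0.0196 with no filter on low counts and 0.0166 without the si and si_NC libraries that stood apart. These were 3 of 11 other settings, and the other 8 did not call HPGD. EdgeR fits with a single library left out called it in 0 of 6 (adjusted p = 0.14 to 0.264).

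PTGIS had 4.32, 3.84 and 4.03 CPM in OE, against 6.08, 4.35 and 6.61 CPM in OE_NC. The groups did not overlap, although OE_NC replicate 2 lay just above the highest OE library. The log2 change was −0.48 ± 0.17 (95% interval −0.84 to −0.12, adjusted p = 0.105), and −0.49 (adjusted p = 0.0446) without si replicate 3 and si_NC replicate 2. PTGIS was called in 1 of 12 other settings and in 0 of 6 fits with a single library left out.

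PTGES had 7.90, 7.69 and 6.93 CPM in OE, against 9.36, 9.45 and 10.8 CPM in OE_NC, with no overlap. Its log2 change of −0.39 ± 0.15 had an adjusted p of 0.126, and of 0.0395 with only the 6 libraries compared. With the trend on gene length removed the change was −0.14 (adjusted p = 0.681), and without the libraries that stood apart it was −0.40 (adjusted p = 0.0331). In all, PTGES was called in 2 of 12 other settings and in 0 of 6 fits with a single library left out. PTGES2 had 7.43, 7.80 and 6.90 CPM in OE, against 9.11, 7.86 and 7.97 CPM in OE_NC, and its log2 change was −0.17 ± 0.17 (adjusted p = 0.577). PTGES3 had 106, 105 and 106 CPM in OE, against 121, 106 and 106 CPM in OE_NC, and its log2 change was −0.07 ± 0.08 (95% interval −0.25 to 0.11). In both PTGES2 and PTGES3 the highest of the 6 libraries was OE_NC replicate 1.

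PTGS2 had 1.83, 2.11 and 1.97 CPM in OE, against 1.75, 1.72 and 1.49 CPM in OE_NC. All OE libraries were the higher ones, and the log2 change of 0.25 ± 0.20 did not pass the test (adjusted p = 0.494). PTGER4 had 1.55, 1.74 and 2.09 CPM in OE, against 1.64, 2.02 and 1.88 CPM in OE_NC, a log2 change of −0.04 ± 0.22 with a 95% interval of −0.52 to 0.43. PTGFR had 1.33, 1.65 and 1.11 CPM in OE, against 1.31, 1.06 and 0.664 CPM in OE_NC, a log2 change of 0.43 ± 0.31 (adjusted p = 0.428). Both receptors overlapped between the groups.

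**Figure D3:**
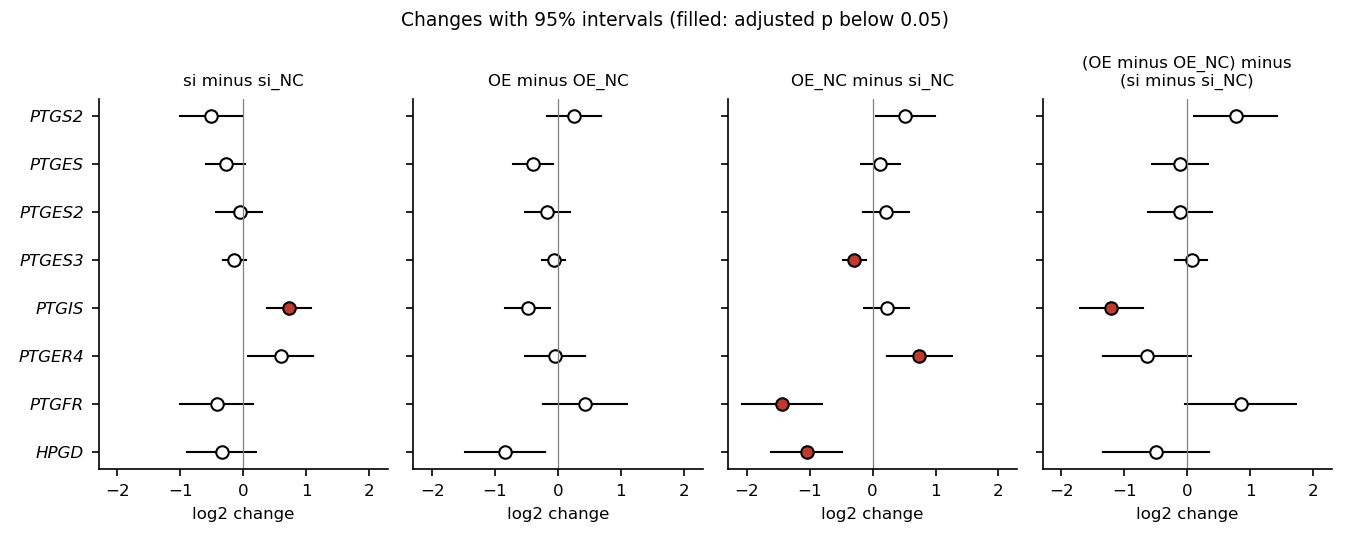
Log2 change of the 8 tested members (points) with 95% intervals (lines) in the 3 comparisons and in the difference of the OE and si changes, with filled points for an adjusted p below 0.05. PTGIS is filled for si and for the difference, no member is filled for OE, and PTGES3, PTGER4, PTGFR and HPGD are filled between the controls.

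The 2 controls differed from each other in 4 of the 8 tested members. In OE_NC, PTGFR and HPGD were lower than in si_NC, at 0.369 and 0.484 of its level, PTGES3 was slightly lower, and PTGER4 was higher. Plasmid transfection, the reagent for interference and any difference between the experiments cannot be told apart in this comparison. Of all tested genes 19.7 percent were called between the controls, 9.49 percent upward and 10.2 percent downward, so 4 of 8 stands against a high background. DESeq2 called the same 4 members, and limma, under both pseudocounts, called PTGER4, PTGFR, HPGD and PTGS2 but not PTGES3. This comparison shares si_NC with the si comparison and OE_NC with the OE comparison.

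PTGFR averaged 1.01 ± 0.325 CPM in OE_NC and 2.76 ± 0.648 CPM in si_NC (SD, n = 3 each), with no overlap. Its log2 change of −1.44 ± 0.29 (95% interval −2.07 to −0.81, adjusted p = 0.00425) was called in 6 of 6 fits that left out a library of these groups (−1.66 to −1.21). HPGD averaged 1.66 ± 0.349 CPM in OE_NC and 3.44 ± 0.0962 CPM in si_NC, also with no overlap. Its log2 change was −1.05 ± 0.27 (adjusted p = 0.0137), and the call was lost without OE_NC replicate 2 (−0.92, adjusted p = 0.0664). The controls did not overlap for 35.8 percent of tested genes, 18.4 percent upward and 17.4 percent downward, and for 4 of the 8 members, PTGS2 and PTGER4 upward and PTGFR and HPGD downward.

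PTGER4 averaged 1.85 ± 0.195 CPM in OE_NC and 1.10 ± 0.204 CPM in si_NC (SD, n = 3 each). The groups did not overlap and the log2 change was 0.74 ± 0.24 (adjusted p = 0.0408). The call held in 1 of 6 fits with a library left out, the one without OE_NC replicate 1, and the other 5 gave 0.59 to 0.84 with adjusted p-values of up to 0.138. PTGES3 averaged 111 ± 8.91 CPM in OE_NC and 136 ± 16 CPM in si_NC, with overlapping groups. Its log2 change of −0.29 ± 0.08 (adjusted p = 0.0244) kept its call without si_NC replicate 2 and without OE_NC replicate 1, and lost it without each of the other 4 libraries (−0.30 to −0.20). Scaled to library totals it was −0.20 (adjusted p = 0.0845).

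The remaining members did not pass the test between the controls. PTGS2 averaged 1.65 ± 0.138 CPM in OE_NC and 1.15 ± 0.27 CPM in si_NC, with no overlap and a log2 change of 0.52 ± 0.22 (adjusted p = 0.104). By limma on log2(RPKM + 1) it was 0.17 (adjusted p = 0.0276), on a scale that understates the change of low genes. PTGIS (0.23 ± 0.17), PTGES2 (0.22 ± 0.17) and PTGES (0.12 ± 0.15) had log2 changes with intervals that include 0. The smooth muscle and pericyte list, 8 genes led by ACTA2, summed to 5510 to 6180 CPM in OE_NC and 4560 to 5340 CPM in si_NC, with 1 of 7 tested genes called (TAGLN, log2 0.49). The epithelial list summed to 3.66 to 4.45 CPM in OE_NC and 2.14 to 2.64 CPM in si_NC, with 1 of 4 tested genes called (GRHL2, log2 1.12). Of the 13 tested stromal markers 2 were called, THY1 among them (log2 1.17), and that list summed to 16700 to 22800 CPM in OE_NC and 15600 to 21800 CPM in si_NC. Of the 9 tested markers of mature fat cells 2 were called, LPL (log2 0.37) and PPARG (−0.29), and that list summed to 45.3 to 49 CPM in OE_NC and 39.4 to 56.1 CPM in si_NC. These counts stand beside 19.7 percent of all tested genes called between the controls. No gene of these lists was at 0 in all libraries, and their part in these differences was not tested.

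Counting limits bear on PTGS2 and PTGFR in particular. All 12 counts of each gene were even numbers, and 66.2 to 69.3 percent of nonzero counts of a library were even. With counts halved, PTGFR between the controls was −1.42 (adjusted p = 0.005). PTGFR shares 1016 of its 5242 exon bases with LOC104971683 on the opposite strand, which averaged 0.218 CPM. The strand used in counting is not given in the sources used here, so reads of the 2 genes may not be told apart there. No other member shares exon bases with another gene. Among the other genes of the pathway lists, for example, PPID (285 of 1480 bases), EREG (59 of 3374), AKR1B1 (124 of 1604), PTGFRN (128 of 6142), TNF (257 of 1699) and FOSB (16 of 3786) also share exon bases with a gene on the opposite strand.

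When the OE and si changes were tested against each other, PTGIS passed the test and the other 7 members did not. The change in OE minus the change in si was −1.21 ± 0.23 on the log2 scale (95% interval −1.71 to −0.71, adjusted p = 0.0078). Of all tested genes 8.41 percent were called in this test, 4.29 percent upward and 4.12 percent downward. It was called in 12 of 12 fits with a library left out (−1.38 to −1.10) and under all 11 other settings that could be run (−1.34 to −0.94). It rests on the same 12 libraries as the 2 changes and adds no independent evidence for either. The difference was 0.77 ± 0.31 for PTGS2 (adjusted p = 0.14), 0.85 ± 0.41 for PTGFR (adjusted p = 0.22), −0.64 ± 0.33 for PTGER4 (adjusted p = 0.251) and −0.50 ± 0.39 for HPGD (adjusted p = 0.475). It was within 0.11 of 0 for the 3 E synthases.

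**Figure D4:**
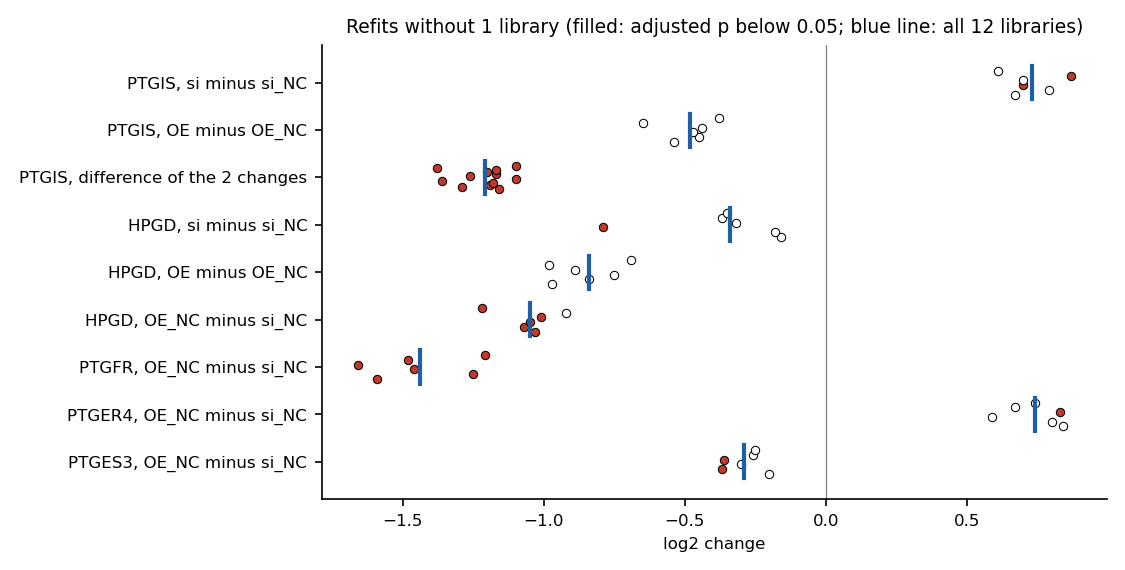
Log2 change of selected members in fits that leave out each library of the groups compared (points, filled where the adjusted p is below 0.05) beside the value with all 12 libraries (blue line). PTGIS stays filled in 12 of 12 fits for the difference of the changes and in 2 of 6 for si minus si_NC, and PTGFR in 6 of 6 between the controls.

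In the count table's coordinates, whose genome build is not given in the sources used here, with chromosomes named through the symbols of a RefSeq gene table, the members are spread over 8 chromosomes. PTGIS spans bases 77590822 to 77642755 of chromosome 13 on the minus strand, in 13 merged exons of 2342 bases. PTGS2 spans 67728006 to 67735629 of chromosome 16 on the minus strand, in 10 merged exons. PTGES (100121988 to 100133425), PTGES2 (98758686 to 98764051) and PTGS1 (93229646 to 93262108) all lie on chromosome 11, PTGS1 on the plus strand and the other 2 on the minus strand. PTGES3 is on chromosome 5, PTGFR on 3, PTGER2 on 10, PTGER4 on 20 and HPGD on 8. All values cover the exons of the listed gene models together, so isoforms were not separated.

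No tested gene of the list for the release and handling of arachidonate passed the test in si or OE. Of 20 listed genes found, 12 were tested, and 0 were called in si or in OE by edgeR, DESeq2 or limma. At an unadjusted p under 0.05 there were 2 in si and 0 in OE, beside 3083 and 3736 of the 16300 tested genes. The median log2 change of the list was 0.023 in si and −0.001 in OE, beside 0.025 and −0.005 over all tested genes. The 2 most abundant were ANXA1, which encodes the phospholipase inhibitor annexin A1, at log2 −0.01 in si and 0.02 in OE, and ACSL4, an arachidonate-preferring acyl-CoA synthetase, at −0.14 and 0.15. PLA2G4A, the cytosolic phospholipase A2, averaged 9.68 ± 2.14 CPM in si and 9.43 ± 2.98 CPM in si_NC, and 10.7 ± 0.803 CPM in OE and 8.81 ± 1.09 CPM in OE_NC (SD, n = 3 each). It was named after its values were seen. Between the controls 4 of the 12 were called, beside 19.7 percent of all tested genes. MGLL, which releases arachidonate from 2-arachidonoylglycerol, rose (log2 0.99), and ACSL4 (−0.54), DAGLB (−0.35) and PLAA (−0.32) fell. Without single libraries ACSL4 and DAGLB stayed called in 6 of 6 fits, PLAA lost its call without si_NC replicate 1, OE_NC replicate 2 or OE_NC replicate 3 (−0.29 to −0.27), and MGLL kept its call in the 1 fit without si_NC replicate 2.

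Other synthases and the enzymes of transport and breakdown had 0 calls in si and OE. Of 5 tested synthases, AKR1B1, which acts as a prostaglandin F synthase in cattle endometrium, was the most abundant per length. It averaged 23.8 ± 2.12 CPM in si and 28.1 ± 1.02 CPM in si_NC, a log2 change of −0.24 (adjusted p = 0.144). FAM213B, which encodes prostamide and prostaglandin F synthase, came next, with log2 changes of 0.08 in si and −0.28 in OE, and rose between the controls by a log2 value of 0.71 (adjusted p = 0.00195). At an unadjusted p under 0.05 there was 1 synthase in each experiment. Of the 4 tested genes of transport and breakdown, 0 had an unadjusted p under 0.05 in either experiment, and PTGR1 and PTGR2, reductases that act after HPGD, had log2 changes between −0.09 and 0.09. Of 16 genes of the lipoxygenase and epoxide branch, 12 were too low to test and 0 were called in any comparison by edgeR, DESeq2 or limma, with 1 at an unadjusted p under 0.05 in OE and 0 in si. LTA4H (0.10 in si, −0.04 in OE) and EPHX1 (0.15 and 0.53) were its most abundant genes. HPGDS, the haematopoietic prostaglandin D synthase, and TBXAS1, thromboxane synthase, were below the filter.

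The other prostanoid receptors also had 0 calls in si and OE by edgeR, and DESeq2 called 1 in si. At an unadjusted p under 0.05 there were 3 and 1 of 6, beside 3083 and 3736 of the 16300 tested genes. PTGDR, a prostaglandin D2 receptor, averaged 18.3 ± 2.5 CPM in si and 23.0 ± 3.28 CPM in si_NC, and 9.76 ± 0.721 CPM in OE and 10.8 ± 0.0587 CPM in OE_NC (SD, n = 3 each). Between the controls it fell by 1.09 on the log2 scale (adjusted p = 8.55e-05), in 6 of 6 fits with a library left out. PTGFRN, a protein that reduces ligand binding to PTGFR, averaged 43.4 ± 2.44 CPM in OE and 30.1 ± 8.08 CPM in OE_NC (log2 0.53, adjusted p = 0.134), and its log2 change in si was 0.04. TBXA2R, the thromboxane receptor, rose between the controls (log2 0.64, adjusted p = 0.0184) and lost that call without si_NC replicate 1 or OE_NC replicate 1 (0.56 each). PTGIR, the prostacyclin receptor, averaged 0.437 ± 0.167 CPM in si and 0.341 ± 0.148 CPM in si_NC (log2 0.36, adjusted p = 0.721).

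**Figure D5:**
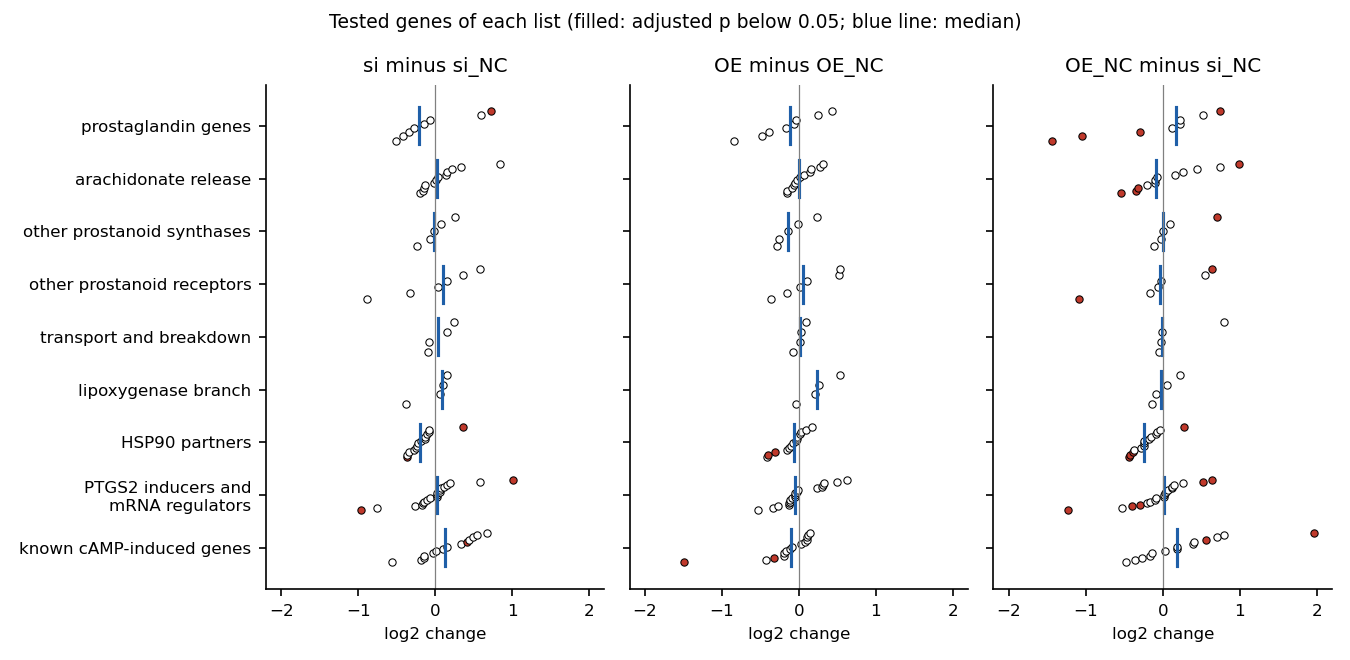
Log2 change of every tested gene of the members and of 8 related lists in 3 comparisons, with filled points for an adjusted p below 0.05 and blue lines for list medians. The arachidonate, synthase, receptor, transport and lipoxygenase lists hold 0 filled points in si and OE, and the regulators of PTGS2 hold 2 in si, ZFP36 at 1.01 and EREG at −0.96.

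Among 19 tested genes known to induce PTGS2 or to act on its mRNA, 1 rose and 1 fell in si by edgeR. Of all tested genes 0.92 percent were called upward and 1.62 percent downward there. DESeq2 called 4 of the 19, and it also called more of all genes in si, as given with the dependence on processing. ZFP36, which encodes tristetraprolin, a protein that binds and destabilises AU-rich mRNAs including that of PTGS2, averaged 4.63 ± 0.393 CPM in si and 2.3 ± 0.322 CPM in si_NC (SD, n = 3 each). Its log2 change was 1.01 ± 0.18 (adjusted p = 0.0127), and the call was lost without si replicate 1 (0.93) or si_NC replicate 1 (0.92). EREG, a ligand of the EGF receptor, averaged 8.79 ± 1.45 CPM in si and 17.1 ± 2.94 CPM in si_NC, a log2 change of −0.96 ± 0.15 (adjusted p = 0.00786) called in 6 of 6 fits with a library left out. IL1A, IL1B, TNF and IL6, cytokines that induce PTGS2, were all below the filter, with group means of at most 0.227 CPM. In OE 0 of the 19 were called by edgeR and DESeq2 called 1, while 6 had an unadjusted p under 0.05, beside 3736 of the 16300 tested genes. The 2 most abundant of the list, JUN and RELA, had log2 changes of −0.03 and −0.12 there. Between the controls 5 of the 19 were called, beside 19.7 percent of all tested genes, with EREG (−1.23) and ZFP36L1 (−0.40) lower in 6 of 6 fits. ZFP36 (0.64) and EGR1 (0.52) were higher, and the calls were lost in 3 fits for ZFP36 (without si_NC replicate 1, si_NC replicate 3 or OE_NC replicate 2, 0.54 to 0.63) and in 4 for EGR1 (all but those without si_NC replicate 3 and OE_NC replicate 1).

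PTGES3 acts in the HSP90 chaperone machine, and the 14 tested partners had medians of −0.198 in si and −0.063 in OE, with 13 and 10 estimates below 0. The medians over all tested genes were 0.025 and −0.005. EdgeR called 2 partners in each experiment, beside 2.54 percent of all tested genes in si and 4.47 percent in OE. DESeq2 called 5 in si and 3 in OE, and it also called more of all genes, as given with the dependence on processing. In si, HSP90AA1 rose (8030 ± 164 CPM in si and 6240 ± 745 CPM in si_NC, log2 0.36 ± 0.08, adjusted p = 0.0273) and its paralog HSP90AB1 fell (5920 ± 191 CPM in si and 7620 ± 1080 CPM in si_NC, −0.36 ± 0.09, adjusted p = 0.0434). HSP90AA1 lost its call when replicate 1 or 2 of si or replicate 3 of si_NC was left out (0.33 to 0.37), and HSP90AB1 kept its call in the 1 fit without si_NC replicate 2. How reads that match both paralogs were counted is not given in the sources used here. In OE, the co-chaperones AHSA1 (−0.40, adjusted p = 0.0455) and SUGT1 (−0.31, adjusted p = 0.047) fell. AHSA1 lost its call without any 1 of the 6 libraries (−0.48 to −0.31), and SUGT1 kept its call in the 1 fit without OE_NC replicate 3. Between the controls, where PTGES3 was lower, HSP90AB1 (−0.39), PPID (−0.43) and CHORDC1 (−0.44) were lower in 6 of 6 fits. HSP90AA1 was higher (0.28) and lost its call without si_NC replicate 2, si_NC replicate 3, OE_NC replicate 1 or OE_NC replicate 2 (0.21 to 0.28).

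The receptors PTGER2, PTGER4, PTGIR and PTGDR raise cyclic AMP, while other prostaglandin E2 receptors do not, and 14 genes linked to cyclic AMP signalling were tested. DUSP1, a phosphatase of MAP kinases, averaged 101 ± 10.9 CPM in si and 76 ± 5.47 CPM in si_NC, and 89.9 ± 3.86 CPM in OE and 112 ± 4.4 CPM in OE_NC (SD, n = 3 each). It rose in si (log2 0.41, adjusted p = 0.0239) and fell in OE (−0.32, adjusted p = 0.0464). The si call was lost when replicate 1 or 2 of si or replicate 1 of si_NC was left out (0.35 to 0.36), and the OE call without any 1 of the 6 libraries (−0.35 to −0.30). FOSB, a transcription factor of the AP-1 family, averaged 0.408 ± 0.0805 CPM in OE and 1.16 ± 0.464 CPM in OE_NC, a log2 change of −1.5 ± 0.39 (adjusted p = 0.0431) that was called in the 1 fit without OE_NC replicate 3. The other 12 were not called in si or OE. In all, 1 of the 14 was called in si and 2 in OE, beside 2.54 and 4.47 percent of all tested genes. Between the controls FOSB (1.97) and DUSP1 (0.56) were higher, in 6 of 6 fits each. Of the receptors, PTGDR was lower there (−1.09) and PTGER4 higher (0.74), and a link between receptors and these genes was not tested. The cyclic AMP list had medians of 0.127 in si and −0.097 in OE, beside 0.025 and −0.005 over all tested genes.

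Across the 12 libraries, the genes with a mean of at least 5 CPM whose profile was nearest to that of PTGIS were TTYH3, RNF141 and ND6, with root mean square differences of 0.189, 0.194 and 0.198 in centred log2 CPM. The median of all candidate genes was 0.41. TTYH3 averaged 63.3 ± 2.55 CPM in si and 48.1 ± 4.47 CPM in si_NC, and 36 ± 2.65 CPM in OE and 46.1 ± 2.54 CPM in OE_NC (SD, n = 3 each). ND6, a mitochondrial gene with 17 of 528 bases shared with ND5 on the opposite strand, averaged 1240 ± 159 CPM in si and 874 ± 48.5 CPM in si_NC, and 682 ± 33.3 CPM in OE and 959 ± 50.6 CPM in OE_NC. Nearest to PTGS2 were STBD1 (0.149), SCN2A (0.152) and MAP9 (0.154), against a median of 0.413. STBD1 averaged 28.6 ± 3.1 CPM in si and 32.4 ± 1.22 CPM in si_NC, and 54.8 ± 3.99 CPM in OE and 44.3 ± 0.345 CPM in OE_NC. All were chosen for their likeness over the same libraries, so these values are a description.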

How the data were processed

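RNA of 12 libraries of precursor adipocytes, 48 h after transfection, was sequenced from stranded poly(A) libraries, per the labels' protocols. The authors deposited counts per gene, and RPKM values beside them. Per the submitters' processing notes, fastp 0.23.0 and featureCounts of Subread 1.5.1 were used. The sources used here do not give the aligner, genome build or counting strand. Recomputed from the counts and exon lengths, the deposited RPKM differed by at most 5.2e-15 (relative). The table had 0 value columns without a sample, and 2 entries that name no gene, 0.0868 to 0.116 percent of counts, were left out.

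Counts were filtered with filterByExpr (minimum count 10, minimum total 15), scaled by TMM (factors 0.9492 to 1.036) and tested with the quasi-likelihood F test of edgeR 4.0.16 (R 4.3.3) in 1 fit of 12 libraries with 8 residual degrees of freedom, so that all groups share 1 estimate of spread. Each contrast was adjusted over 16300 genes, with a threshold of 0.05. The procedure was tested on simulated data. Alternatives were DESeq2 1.42.0, limma 3.58.1 on log2(RPKM + 1) and log2(RPKM + 0.1), other scalings and filters, a replicate block, halved counts, a length trend (spline with 4 degrees of freedom) and libraries left out. CPM are TMM-normalised. Members and genes of the pathway lists were compared between genes in RPKM. The cell type markers were ranked and summed in CPM, which is not scaled to gene length. Per length their order can differ: VIM averaged 3830 RPKM in si and COL1A2 1760 RPKM. Precision is limited by 3 libraries a group.

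The members, the related lists and the libraries doubted were chosen with earlier results of these data known. Named genes were all members, HGFAC, up to 4 called genes per list and contrast by size of change or else the 2 most abundant per length, 3 genes nearest to PTGIS and to PTGS2, and the highest marker of each cell type by CPM. Other genes named (PLA2G4A, PTGIR, HPGDS, TBXAS1, the cytokines and further markers) were chosen after their values were seen. Of 191 listed symbols 7 were not found in the table. Chromosome names came from the symbols of a RefSeq gene table (ARS-UCD2.0), which held 85.3 percent of the table's symbols. Only 25.3 percent of those had the same start and end, so no coordinates were taken from it. One result of a related gene is not reported here.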

Additional observations from a re-analysis of the deposited data

Results flagged for a closer look

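For PTGIS and 6 genes of the related pathway lists the change in OE differed from the change in si by a direct test over all 12 libraries (edgeR, adjusted p below 0.05). HGFAC itself, marker genes (THY1, VIM, CSF1R and CSPG4) and 5 of the 6 genes named for their likeness to PTGIS or PTGS2 also passed it, and those 5 were chosen for their profile over the same libraries. Of all 16300 tested genes 8.41 percent were called in this test. By pathway list it called 1 of 6 receptors, 1 of 14 HSP90 partners, 2 of 19 PTGS2 regulators and 2 of 14 cyclic AMP genes. It called 0 tested genes of the arachidonate, synthase, transport and lipoxygenase lists. PTGIS had a difference of −1.21 ± 0.23 on the log2 scale (SE, adjusted p = 0.0078), lower in OE against its control and higher in si against its control, and was called in 12 of 12 fits with a library left out. ZFP36 (−1.54 ± 0.25, adjusted p = 0.00363) and DUSP1 (−0.73 ± 0.12, adjusted p = 0.00366) had differences of the same sign, each also called in 12 of 12 fits. EREG (0.91 ± 0.22, adjusted p = 0.0219) had a difference of the opposite sign and was called in 8 of 12. FOSB (−2.17 ± 0.60, adjusted p = 0.0366), TBXA2R (−0.94 ± 0.24, adjusted p = 0.029) and CHORDC1 (0.41 ± 0.12, adjusted p = 0.0391) rested on single libraries: FOSB was called in 3 of 12 fits, TBXA2R in 4 and CHORDC1 in 3. TBXA2R had 3.59 ± 0.584 CPM in si and 2.40 ± 0.257 CPM in si_NC, and 2.92 ± 0.427 CPM in OE and 3.74 ± 0.357 CPM in OE_NC (SD, n = 3 each), and passed the test in neither experiment alone. ZFP36 had 2.48 ± 0.598 CPM in OE and 3.58 ± 0.317 CPM in OE_NC (log2 −0.53, adjusted p = 0.0944), and EREG 7.06 CPM in OE and 7.30 CPM in OE_NC (log2 −0.05).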

How the results depend on the processing

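Of the members' log2 changes under the other settings, 334 kept their direction and side of the threshold, 7 lost a call, 9 gained one and 10 changed sign, all 10 for E synthases that were not called. With libraries left out singly the counts were 216, 14, 1 and 9. PTGES2 in si was 0.02 with library totals and 0.03 and 0.04 with limma. With the length trend removed, PTGES3 in OE was 0.02, PTGES between the controls −0.18, and the difference of changes 0.24 for PTGES and 0.13 for PTGES2. For PTGES3 that difference was −0.07 with library totals and with limma under both pseudocounts. Library totals moved the median of all genes by −0.135 in the difference of changes. The cause was not tested for any of these.

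Genes called in si, 414 in all, were 1125 with DESeq2, 1208 with no filter on low counts, 8 with only the 6 libraries compared, 1093 with the length trend removed and 1119 without si replicate 3 and si_NC replicate 2. Genes called in OE, 728 in all, were 1546 with DESeq2, 1679 with no filter, 1621 with only the 6 libraries compared and 2325 without those 2 libraries, where the difference of changes gave 2305 in place of 1371. Members called in si were 0 with only the 6 libraries compared and 2 without those 2 libraries. Members called in OE were 1 with no filter, 2 with only the 6 libraries compared and 3 without those 2 libraries. Between the controls they were 2 with only the 6 libraries compared and 1 with at least 5 CPM in 3 libraries, a filter that removes low members by construction.

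With single libraries left out, genes called ranged from 56 to 1083 in si, 19 to 758 in OE, 1882 to 2833 between the controls and 588 to 2152 for the difference. Members called ranged from 0 to 2 in si, stayed 0 in OE, and ranged from 1 to 4 between the controls, with 1 for the difference. Log2 changes that crossed 0 were PTGES2 in si (−0.26 to 0.11), PTGER4 in OE (−0.16 to 0.04), PTGES between the controls (−0.05 to 0.30), and the differences for PTGES2 (−0.28 to 0.08), PTGES (−0.29 to 0.06) and PTGES3 (−0.02 to 0.14). Libraries with the same replicate number did not deviate together (r from −0.383 to 0.174 in si and −0.042 to 0.07 in OE), and the main fit used no pairing. With 3 libraries a group these values cannot exclude a weak shared effect or a pairing under other numbers. With a replicate block PTGIS was 0.72 in si (adjusted p = 0.0443), its difference −1.20, and PTGER4 between the controls lost its call (0.75, adjusted p = 0.0551).

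Depth limits PTGS1 and PTGER2, which had at most 12 counts in a library.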
